A study of Mus musculus with 16 samples.

Results

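The genes described here are 7 mouse surface antigens: the Ly6 family members Ly6a, Ly6c1, Ly6c2, Ly6d and Ly6e, the related prostate stem cell antigen Psca, and the prominin gene Prom1. They were picked by name from the 55414 gene IDs of one count table, and all 7 were found there. They were measured by RNA-seq of total RNA in 16 tumours grown under the skin from B6MyC-CaP cells, a prostate cancer line from Hi-MYC transgenic mice that had been crossed back to C57BL/6. In Hi-MYC mice a human MYC transgene is driven by a prostate-specific, androgen-responsive promoter. Every tumour came from the same line, and the hosts were male C57BL/6 mice aged 6 weeks at implantation, with their own immune and stromal cells.

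The tumours fell into 4 groups of 4. ENZ tumours came from mice given 20 mg/kg enzalutamide, an androgen receptor antagonist, by mouth each day with free access to chow. ADF tumours came from mice on alternate-day fasting, with 24 hours without food followed by 24 hours of free feeding. ADF+ENZ tumours came from mice that received both. Vehicle tumours came from mice with free access to chow and no enzalutamide. The labels do not say that the tumours of a group came from separate mice, so a p-value speaks only of the spread among the samples sequenced.

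Ly6 proteins are small, disulphide-rich proteins that mostly sit on the outer cell membrane through a glycosylphosphatidylinositol (GPI) anchor. Ly6a encodes Sca-1, which marks mouse haematopoietic stem cells, many endothelial and stromal cells, and a progenitor-enriched epithelial fraction in the proximal ducts of the mouse prostate. Several members, Ly6a and Ly6e among them, are also known as interferon-induced genes. Psca and Prom1, which encodes CD133, are used to mark prostate epithelial subsets, and Ly6d has been used to mark castration-resistant luminal progenitors in the mouse prostate.

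The members differed widely in abundance. Ly6a, Ly6c1 and Ly6e were abundant in every library. Ly6c2 was low, with a mean of 1.19 CPM, but had counts in all 16 libraries. Ly6d, Psca and Prom1 were at or near the limit of detection. In the tumours, 4 of the 7 members passed the filter on low counts and entered the test, namely Ly6a, Ly6c1, Ly6c2 and Ly6e. Psca had 13 counts over all 16 libraries, Ly6d had 25 and Prom1 had 48, and these 3 did not pass. Levels below are CPM, the counts per 1e+06 counts of a library, scaled by the trimmed mean of M-values (TMM). Differences are log2 fold changes from edgeR's quasi-likelihood test over 18946 genes, and a gene was called at a Benjamini-Hochberg adjusted p under 0.05 over all of them. The members were chosen with earlier results of these data known, so their place among all genes is a description and lends no independent support.

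The members used to mark prostate progenitors or epithelial subsets differed in RNA level. Ly6a was high, but its RNA in bulk tumours cannot be assigned to a cell type. Ly6d, Psca and Prom1 were each at most 9 counts in any library. Krt5 and Krt14, keratins of prostate basal cells, were also below the filter, with Krt14 at 0 counts in ADF and in Vehicle, and Krt5 at 0 in ADF and in ADF+ENZ. In a list of 25 prostate basal and progenitor genes, 7 were below the filter, these among them. The other 18 passed, including Trp63 and Sox9. Of the keratins of simple epithelium, Krt8 averaged 471 CPM in ENZ, 484 CPM in ADF, 456 CPM in ADF+ENZ and 594 CPM in Vehicle tumours. Epcam, an epithelial adhesion gene, averaged under 1 CPM in every group, while 7 of 10 listed epithelial markers passed the filter. These are bulk tumours, so fewer cells of a type and less RNA per cell cannot be told apart.

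Total gene counts ran between 10072489 and 25505655 per library. The lowest was that of ADF+ENZ 3, which also had the lowest TMM factor, 0.907, and the largest share of unaligned reads, 16.7%. Without this library edgeR called 1202 genes in ADF+ENZ against Vehicle and 20 in ADF+ENZ against ENZ, compared with 2369 and 206 with it. For ADF+ENZ against ENZ, leaving out ENZ 3 instead left 36 calls, and leaving out ADF+ENZ 2 gave 358. ADF libraries stood apart: 32.9% ± 2.72 of their reads lay in no annotated feature, against 25.9% ± 2.24 in Vehicle libraries (SD, n = 4 each), and 4.70% ± 0.414 aligned to several places, against 7.44% ± 0.294 in Vehicle libraries. ENZ and ADF+ENZ libraries resembled Vehicle in both, with 25.9% and 24.0% in no feature and 7.89% and 7.09% aligned to several places. The fit was therefore repeated with the no-feature percentage as a covariate. Over all genes, edgeR then called 6 in ADF against Vehicle, and 0 in ADF+ENZ against ADF and in the interaction (589 and 1014 at an unadjusted p under 0.05). Every call of a gene named below in these 3 comparisons, member or not, was lost with the covariate, so such a call cannot be told apart from this difference between libraries. The losses were not all alike. In ADF against Vehicle the log2 fold change ± SE of Ly6a was −0.77 ± 0.0971 without the covariate and −0.75 ± 0.164 with it. For Ly6e, which was not called there, it was −0.35 ± 0.147 without and 0.06 ± 0.213 with it.

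Ly6a (ENSMUSG00000075602, chromosome 15, minus strand) was lower in all 3 treated groups than in Vehicle. Its level was 177, 211, 194 and 196 CPM in the ENZ tumours. In ADF tumours it was 248, 255, 312 and 294 CPM. In ADF+ENZ tumours it was 297, 262, 280 and 246 CPM, and in Vehicle tumours it was 409, 476, 529 and 477 CPM. No treated library reached the lowest Vehicle library, and no ENZ library reached the lowest library of any other group. ADF and ADF+ENZ covered nearly the same range. The order was thus ENZ lowest, then ADF+ENZ and ADF, which did not differ beyond their spread, then Vehicle. The difference between ENZ and ADF was not tested.

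Relative to Vehicle, Ly6a fell by 1.28 ± 0.0981 (log2 fold change ± SE) in ENZ tumours, to 0.411 of the Vehicle level, with an adjusted p of 4.99e-07 by edgeR. By p-value it stood 2nd among the 18946 genes in that comparison. It fell by 0.77 ± 0.0971 in ADF tumours (adjusted p 0.000219 by edgeR) and by 0.80 ± 0.0971 in ADF+ENZ tumours (adjusted p 6.40e-05 by edgeR). With the no-feature covariate the ADF difference was −0.75, with an adjusted p of 0.137 by edgeR, while those of ENZ, at −1.28, and of ADF+ENZ, at −0.81, were still called.

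**Figure D1:**
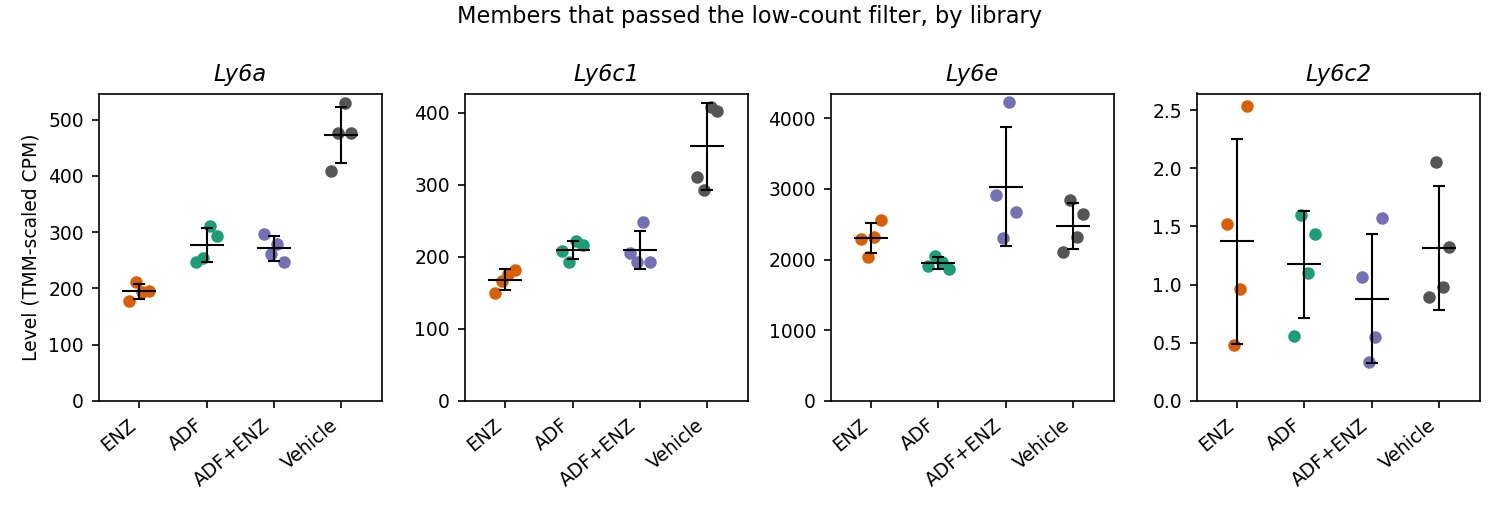
TMM-scaled CPM (linear axes from 0) of the 4 members that passed the low-count filter, each point 1 library, with the group mean and SD in black (n = 4 per group). For Ly6a and Ly6c1 every ENZ, ADF and ADF+ENZ library lies below every Vehicle library, while the groups of Ly6c2 overlap.

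Ly6c1 (ENSMUSG00000079018), the neighbour of Ly6a on the same strand, encodes a Ly6C antigen carried by endothelial cells and several leukocytes. It showed the same order of groups. ENZ tumours had 150, 166, 176 and 181 CPM. ADF tumours had 207, 193, 222 and 216 CPM, and ADF+ENZ tumours had 206, 192, 248 and 193 CPM. Vehicle tumours had 311, 293, 408 and 402 CPM. Again the 12 libraries of treated mice all lay below the 4 Vehicle libraries, and the 4 ENZ libraries were the lowest.

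Ly6c1 fell by 1.07 ± 0.112 on the log2 scale in ENZ tumours relative to Vehicle (adjusted p 2.05e-05, edgeR), by 0.75 ± 0.112 in ADF tumours (adjusted p 0.000767, edgeR) and by 0.75 ± 0.112 in ADF+ENZ tumours (adjusted p 0.000426, edgeR). With the no-feature covariate the ADF difference was −0.67 and was no longer called (adjusted p 0.237, edgeR). The ADF and ADF+ENZ comparisons share their Vehicle libraries with the ENZ comparison, so the 3 sets of values are not independent of each other.

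Ly6e (ENSMUSG00000022587), whose product is a widely expressed, interferon-induced GPI-anchored protein, behaved differently. It was the most abundant member, with 2286, 2038, 2323 and 2560 CPM in ENZ tumours and 1909, 2056, 1970 and 1866 CPM in ADF tumours. ADF+ENZ tumours had 2921, 2308, 4234 and 2667 CPM, and Vehicle tumours had 2112, 2849, 2314 and 2639 CPM. The highest value was that of ADF+ENZ 3, the library with the fewest gene counts and the largest share of unaligned reads. ADF libraries were all below those of Vehicle, and ENZ and Vehicle overlapped.

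Ly6e was not called in any comparison with Vehicle. Its log2 difference was −0.11 ± 0.147 in ENZ, with an approximate 95% interval of −0.40 to 0.18, −0.35 ± 0.147 in ADF (adjusted p 0.141, edgeR) and 0.29 ± 0.147 in ADF+ENZ (adjusted p 0.206, edgeR). The ADF value changed sign to 0.06 with the no-feature covariate. The one call was in ADF+ENZ against ADF, where Ly6e rose by 0.64 ± 0.148 (adjusted p 0.00993, edgeR). That value was 0.10 with the covariate and was not called.

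Ly6c2 (ENSMUSG00000022584) encodes the Ly6C form of inflammatory monocytes. It had between 5 and 61 counts per library, and averaged 1.37 ± 0.883 CPM in ENZ, 1.17 ± 0.459 CPM in ADF, 0.879 ± 0.556 CPM in ADF+ENZ and 1.31 ± 0.530 CPM in Vehicle tumours (SD, n = 4 each). All groups overlapped, and it was called in no comparison. Its interval for ENZ against Vehicle, −0.81 to 1.01 on the log2 scale, includes changes of the size seen for Ly6a in ADF, so such a difference could not be shown given the spread between libraries, which in ENZ ran between 0.478 and 2.53 CPM.

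Ly6d (ENSMUSG00000034634), Psca (ENSMUSG00000022598) and Prom1 (ENSMUSG00000029086, on chromosome 5) gave too few reads for a comparison. Summed over 4 libraries, Ly6d had 5 counts in ENZ, 8 in ADF, 3 in ADF+ENZ and 9 in Vehicle. Psca had 4 counts in ENZ, 1 in ADF, 6 in ADF+ENZ and 2 in Vehicle. Prom1 had 5 counts in ENZ, 14 in ADF, 10 in ADF+ENZ and 19 in Vehicle. As levels, Prom1 was at 0.0751 CPM in ENZ (exact 95% Poisson interval 0.0244 to 0.175), 0.250 CPM in ADF (0.137 to 0.419), 0.163 CPM in ADF+ENZ (0.0784 to 0.301) and 0.281 CPM in Vehicle (0.169 to 0.438). These intervals cover counting error only. The ENZ and Vehicle intervals overlap narrowly, which is no test of a difference. In a fit with no filter, Prom1 was at −1.77 ± 0.799 (log2 fold change ± SE) in ENZ against Vehicle and was not called (adjusted p 0.337, edgeR).

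**Figure D2:**
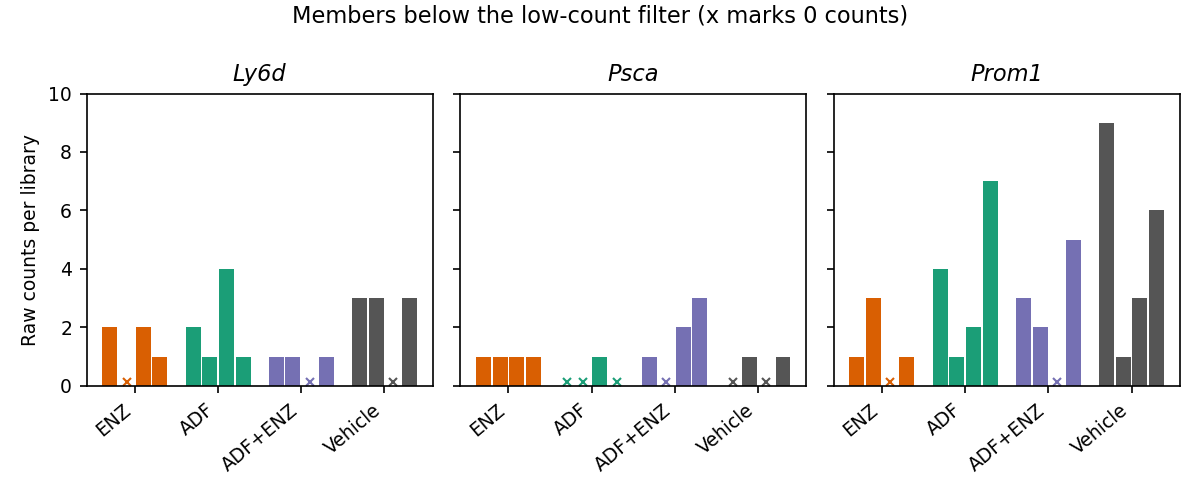
Raw counts of Ly6d, Psca and Prom1, 1 bar per library, with a cross where the count is 0. No library has more than 9 counts of any of the 3 genes.

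Levels of different genes can be set side by side only per length of transcript. In CPM per kilobase of exon, in ENZ tumours Ly6e stood at 608, Ly6a at 161, Ly6c1 at 100.4 and Ly6c2 at 0.501. In Vehicle tumours the same levels were 655, 392, 211 and 0.480. Ly6a was thus the 178th of 18800 genes by this level in ENZ tumours and the 55th in Vehicle tumours. The ratio of the CPM of Ly6e to that of Ly6a was 11.9 ± 1.57 in ENZ, 7.11 ± 0.911 in ADF, 11.2 ± 2.78 in ADF+ENZ and 5.26 ± 0.681 in Vehicle tumours (SD, n = 4 each).

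The design also asks what fasting did in mice on enzalutamide. Ly6a was higher in ADF+ENZ than in ENZ tumours, by 0.48 ± 0.0971 on the log2 scale (adjusted p 0.0240, edgeR), and the 4 libraries of each group did not overlap. This call was lost when any 1 of 5 libraries was left out: ENZ 1, ENZ 3, ENZ 4, ADF+ENZ 1 or ADF+ENZ 3, with adjusted p between 0.0620 and 0.108 by edgeR and differences between 0.43 and 0.48. It was also lost with the no-feature covariate, at 0.47 (adjusted p 0.0670, edgeR). Ly6c1 was 0.31 ± 0.112 higher and was not called (adjusted p 0.174, edgeR), although its libraries did not overlap either. Ly6e was 0.40 ± 0.147 higher and was not called (adjusted p 0.192, edgeR).

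Set against ADF alone, ADF+ENZ tumours had Ly6a at −0.03 ± 0.0967 on the log2 scale, with an approximate 95% interval of −0.22 to 0.16. Ly6c1 differed by −0.00028 ± 0.111, with an interval of −0.22 to 0.22. Both were far from the threshold, with adjusted p of 0.852 and 0.999 by edgeR. With the no-feature covariate the differences were −0.057 and −0.11. These intervals leave room for smaller changes in either direction.

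The interaction compares the fasting effect in enzalutamide-treated mice with that in untreated mice. For Ly6a the difference between ADF+ENZ and ENZ was 0.48, against −0.77 between ADF and Vehicle, and the gap between these effects was 1.25 ± 0.137 (adjusted p 0.000403, edgeR). It had the smallest p-value of all 18946 genes. The gap for Ly6c1 was 1.07 ± 0.158 (adjusted p 0.00471, edgeR), 7th among all genes. For Ly6e the gap was 0.74 ± 0.208 and missed the threshold (adjusted p 0.0549, edgeR), whereas DESeq2 gave an adjusted p of 0.0102 and limma-voom with quality weights 0.0379. With the no-feature covariate the gaps were 1.22 for Ly6a, 0.96 for Ly6c1 and 0.20 for Ly6e, and none was called (adjusted p 0.154, 0.692 and 0.986, edgeR). The gap is on the log2 scale, on which 2 effects that each lower a gene are added.

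**Figure D3:**
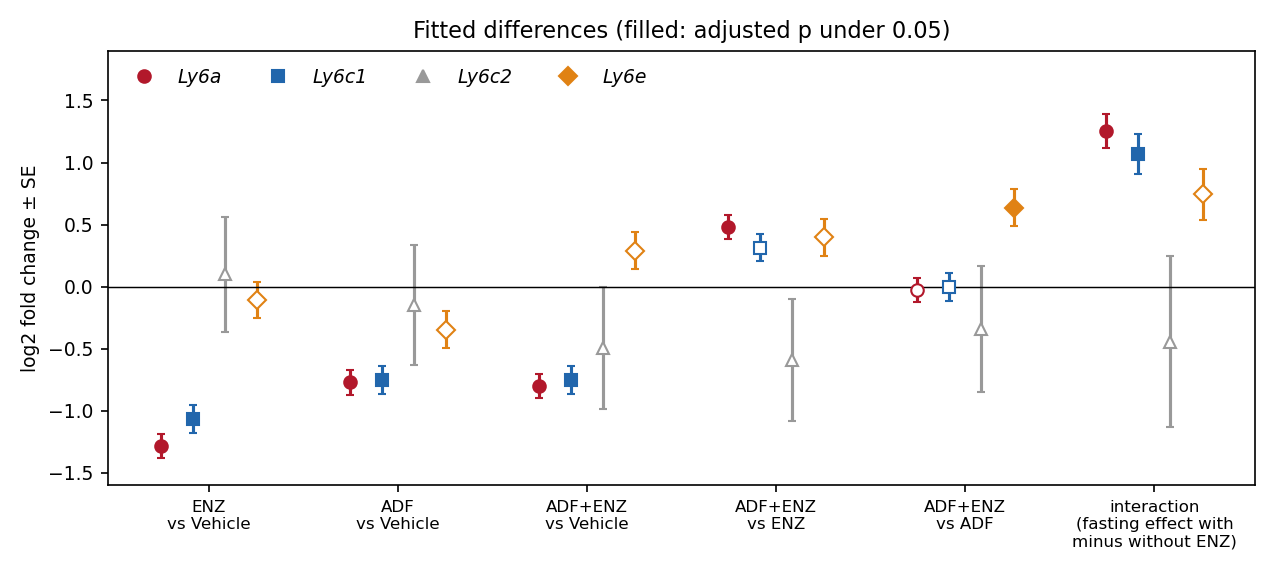
Log2 fold change ± SE of the 4 tested members in the 5 pairwise comparisons and in the interaction, with filled symbols for an adjusted p under 0.05 (edgeR, all 16 libraries in 1 fit). Ly6a and Ly6c1 are near −1 in ENZ against Vehicle, near 0 in ADF+ENZ against ADF, and above 1 in the interaction, while Ly6e is filled only in ADF+ENZ against ADF.

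Counted together, 2 of the 4 tested members fell and none rose in each comparison with Vehicle. Of all genes tested, 5.43% were called in ENZ against Vehicle (3.62% lower), 9.01% in ADF (4.96% lower) and 12.5% in ADF+ENZ (6.53% lower). The median log2 fold change of the 4 was −0.59 in ENZ, against 0.01 over all genes, −0.55 in ADF, against 0.01, and −0.62 in ADF+ENZ, against 0.00012. In ADF+ENZ against ENZ 1 of 4 rose, with 1.09% of all genes called (0.813% higher), and in ADF+ENZ against ADF 1 of 4 rose, with 16.3% called (8.72% higher). In the interaction 2 of 4 were called, both positive, with 3.10% of all genes called (2.18% positive). The members that passed the filter are those with enough reads, and nothing is said by these counts of Ly6d, Psca or Prom1.

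Ly6c1 shares transcript sequence with Ly6a and with Ly6c2, so some reads can be hard to assign within these pairs. Of the 1297 distinct 50-base stretches in the annotated Ly6a transcripts, 195 also occurred in those of Ly6c1 (15.03%), and 379 of the 1764 of Ly6c1 occurred in those of Ly6c2 (21.5%). Ly6a and Ly6c2 shared 3 (0.231% of those of Ly6a). A read that falls wholly in such a stretch has no single origin, and the share of reads aligned to several places was lowest in ADF libraries, as given above; the part of this in the values was not tested. Ly6c2 made up between 0.173% and 1.38% of the summed Ly6c1 and Ly6c2 CPM in the 16 libraries. With the counts of the pair summed before the fit, the difference from Vehicle was −1.06 in ENZ tumours and −0.75 in both ADF and ADF+ENZ tumours. The ratio of Ly6a to Ly6c1 CPM stayed between 1.08 and 1.63 in all libraries.

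RefSeq promoter windows on GRCm38.p6, from 250 bases before to 50 bases after the start site, were at hand for 3 of the 7 members. Those of Ly6c1, which fell in every treated group, and of its low-level neighbour Ly6c2 are shown because the pair differs so widely in level. Capitals mark the stretches of at least 15 bases that both windows hold. Both lie on the minus strand, at chr15:75048788-75049087 and chr15:75111922-75112221, and are written 5′ to 3′.
Ly6c1: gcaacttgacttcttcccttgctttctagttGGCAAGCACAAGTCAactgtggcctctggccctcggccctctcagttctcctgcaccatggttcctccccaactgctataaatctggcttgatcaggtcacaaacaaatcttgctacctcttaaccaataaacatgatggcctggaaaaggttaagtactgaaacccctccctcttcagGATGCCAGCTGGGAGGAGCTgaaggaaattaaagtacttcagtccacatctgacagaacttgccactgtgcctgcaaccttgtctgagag
Ly6c2: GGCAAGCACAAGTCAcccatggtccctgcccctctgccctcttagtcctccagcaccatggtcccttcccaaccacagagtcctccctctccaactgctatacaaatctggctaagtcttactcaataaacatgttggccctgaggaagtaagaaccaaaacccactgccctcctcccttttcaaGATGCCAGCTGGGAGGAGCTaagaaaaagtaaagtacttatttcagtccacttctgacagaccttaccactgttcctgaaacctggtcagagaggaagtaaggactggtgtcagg
Aligned end to end, the windows had the same base in 208 of 334 columns (62.3%), and 2 stretches with 35 bases in all met the length for capitals. The windows are not in register: the leading capital stretch opens the Ly6c2 window but lies further in for Ly6c1. Both figures therefore hold for these windows as cut and can understate the likeness of the pair. A further window of each gene was at hand and is not shown.

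The windows were searched on both strands for 4 motifs. These were the androgen and glucocorticoid receptor half-site TGTTCT, found in 18.97% of 32851 mouse promoter windows of this length, and the interferon-stimulated response element, in its short form of a repeated GAAA with a gap, found in 3.44%. The others were the interferon-gamma activated site TTCNNNGAA, found in 8.30%, and the E-box CACGTG bound by MYC, found in 7.15%. None of these letters stood in the shown windows of Ly6c1 and Ly6c2, which says nothing of binding elsewhere. A window of Prom1 held 1 match to the half-site.

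The stretch of chromosome 15 from Jrk to Top1mt holds the cluster, with Psca, Ly6d, Ly6e, Ly6a, Ly6c1 and Ly6c2 among 56 annotated genes in GRCm38; its ends were chosen after values were seen. There, 20 genes were tested, 16 of them other than members. None of the 16 was called in ENZ against Vehicle, 1 was called in ADF and 3 in ADF+ENZ. Of all genes tested, 5.43%, 9.01% and 12.5% were called in these comparisons. At such shares 0 calls among 16 does not set the neighbours apart from other genes. The 3 were Ly6i and Lynx1, which fell, and Zfp41, which rose by 0.56 ± 0.127 (adjusted p 0.00811, edgeR). In the interaction 2 members and none of the other 16 were called, with 3.10% of all genes called. With the no-feature covariate neither member call held, and edgeR called 0 genes in all.

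**Figure D4:**
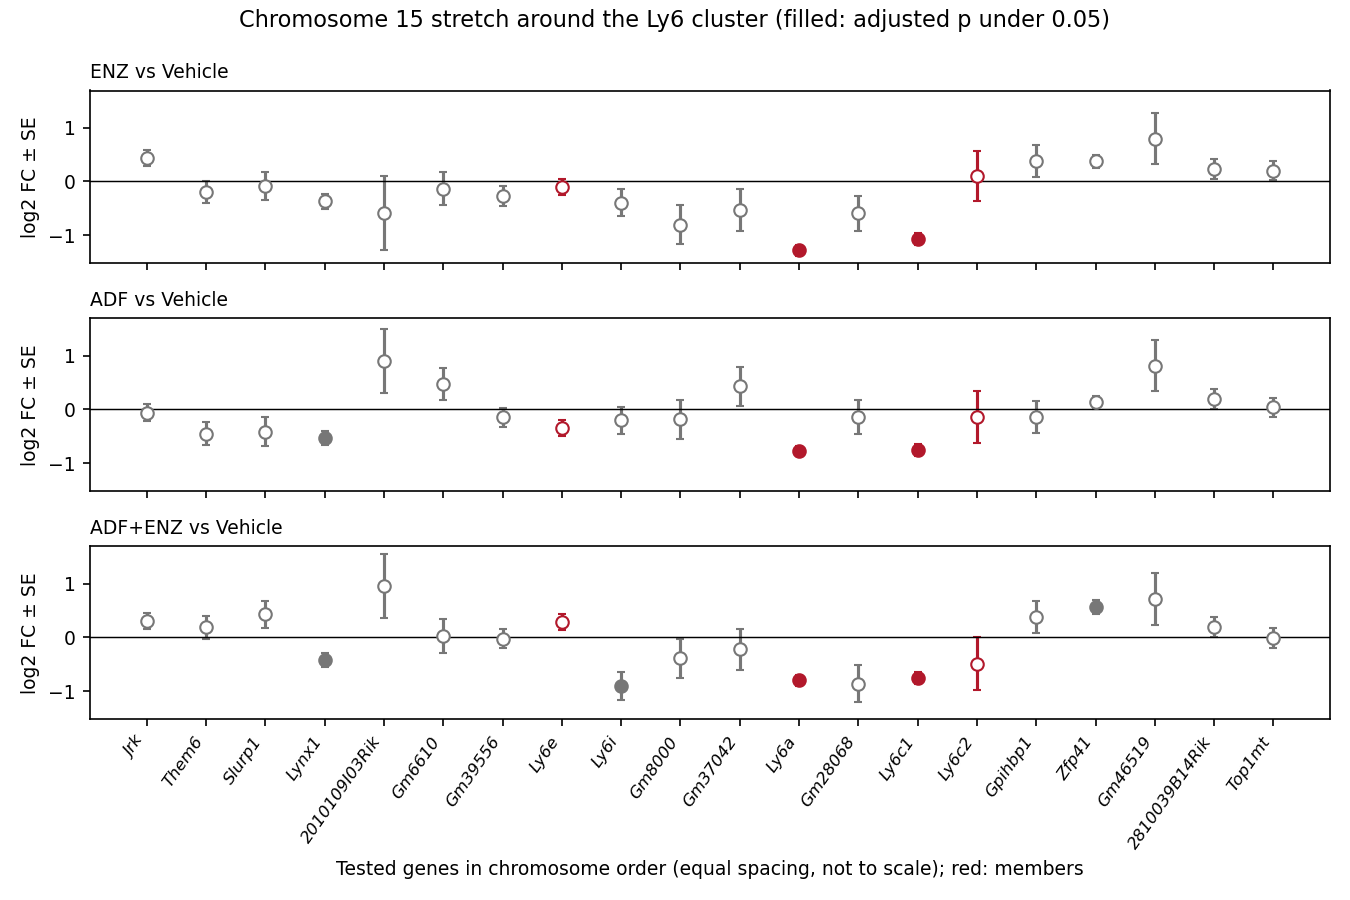
Log2 fold change ± SE against Vehicle of the 20 tested genes between Jrk and Top1mt in chromosome order, with equal spacing; members are red and filled symbols have an adjusted p under 0.05 (edgeR). In the ENZ panel Ly6a and Ly6c1 are the only filled symbols, at −1.28 and −1.07.

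Of the other Ly6 and uPAR family genes, 33 of 37 listed were in the table and 7 passed the filter: Gpihbp1, Ly6i, Lynx1, Slurp1, Cd59a, Ly6g5b and Plaur. None was called in ENZ against Vehicle, 2 were called in ADF and 2 in ADF+ENZ, with 5.43%, 9.01% and 12.5% of all genes called. Ly6i, a neighbour of Ly6a that shared 31 of its 1297 stretches of 50 bases (2.39%), had 1.225, 1.327, 1.096 and 1.536 CPM in ADF+ENZ tumours, against 2.50, 1.77, 2.95 and 2.71 CPM in Vehicle tumours. It fell by 0.90 ± 0.261 there (adjusted p 0.0297, edgeR), with 10 to 49 counts per library in these groups. Lynx1, a GPI-anchored modulator of nicotinic receptors, fell by 0.53 ± 0.133 in ADF (adjusted p 0.0206, edgeR) and by 0.42 ± 0.133 in ADF+ENZ (adjusted p 0.0426, edgeR). With the covariate neither Lynx1 difference was called, at −0.70 and −0.37 (adjusted p 0.298 and 0.109, edgeR). Plaur, the urokinase receptor, fell by 0.44 ± 0.126 in ADF (adjusted p 0.0372, edgeR), and its difference was −0.33 and uncalled with the covariate. Slurp1, a secreted family member, rose by 0.84 ± 0.266 in ADF+ENZ relative to ADF (adjusted p 0.0374, edgeR), and its difference was 0.48 and uncalled with the covariate. Gpihbp1, which carries lipoprotein lipase on capillary endothelium, averaged 44.7 ± 18.6 CPM in ENZ and 34.5 ± 8.79 CPM in Vehicle tumours (SD, n = 4 each) and was not called in any comparison. The median of the 7 was −0.08 in ENZ against Vehicle, −0.20 in ADF and −0.20 in ADF+ENZ.

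The prostate basal and progenitor list, apart from the members, had 25 genes, of which 18 were tested. In ENZ tumours 4 fell and none rose, in ADF tumours 3 fell and none rose, and in ADF+ENZ tumours 5 fell and none rose, each against Vehicle. Sox9, a transcription factor of epithelial progenitors, averaged 201 ± 52.0 CPM in ENZ, 165 ± 18.9 CPM in ADF, 245 ± 35.0 CPM in ADF+ENZ and 318 ± 67.9 CPM in Vehicle tumours (SD, n = 4 each). It fell by 0.66 in ENZ and by 0.95 in ADF, and, like Ly6a, was called in the interaction, at 1.23 ± 0.242 (adjusted p 0.0179, edgeR). With the covariate its ADF difference was −0.69 and its gap in the interaction 0.89, neither called (adjusted p 0.445 and 0.922, edgeR).

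Alcam, an adhesion molecule also known as CD166, fell by 0.85 in ENZ, by 0.90 in ADF and by 1.28 in ADF+ENZ (adjusted p 0.0149, 0.00966 and 0.000654, edgeR). Cd44, the hyaluronan receptor, fell by 0.43 in ENZ (adjusted p 0.0260, edgeR). Krt19 was low throughout, with 12 counts in ENZ, 32 in ADF, 1 in ADF+ENZ and 169 in Vehicle, each summed over 4 libraries. It was called lower in each treated group, and 1 Vehicle library at 6.18 CPM stood above the Vehicle median of 1.43 CPM. Trp63, the master factor of basal cells, averaged 1.77 ± 1.63 CPM in ADF+ENZ and 7.45 ± 3.29 CPM in Vehicle tumours (SD, n = 4 each; adjusted p 0.0286, edgeR). The integrin gene Itga6 fell by 0.65 ± 0.160 in ADF+ENZ (adjusted p 0.0151, edgeR). In ADF+ENZ against ADF 3 rose, namely Procr, Sox2 and Sox9, and 2 fell, Krt19 and Trp63, with 16.3% of all genes called. With the covariate all 4 calls held in ENZ and 3 of 5 in ADF+ENZ, Trp63 not among them (adjusted p 0.0618, edgeR), and the 3 in ADF and 5 in ADF+ENZ against ADF were lost. The median of the 18 against Vehicle was −0.34 for ENZ, −0.22 for ADF and −0.49 for ADF+ENZ.

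Since Ly6a and Ly6e are interferon-induced, 40 other interferon-induced genes were set beside them, all tested. In ENZ tumours 5 fell and none rose against Vehicle, in ADF tumours 1 fell, and in ADF+ENZ tumours 18 fell. With the covariate the 5 and 13 of the 18 were still called, and the 1 in ADF, Isg20, was not (adjusted p 0.182, edgeR). Isg20, an RNA exonuclease, fell in all 3: by 0.996 ± 0.176 in ENZ (adjusted p 0.00247, edgeR), by 1.14 ± 0.179 in ADF (adjusted p 0.00108, edgeR) and by 1.38 ± 0.181 in ADF+ENZ (adjusted p 0.000139, edgeR). Stat2, which carries the type I interferon signal to the nucleus, fell by 0.63 in ENZ and by 0.68 in ADF+ENZ. Bst2 (tetherin) fell by 0.69 in ADF+ENZ, and Ddx58, the RNA sensor RIG-I, fell by 0.46. In ENZ the others named are Ifit2, which fell by 0.43, and Igtp, an interferon-inducible GTPase, which fell by 0.79.

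The 40 genes were also read in the comparisons between treated groups and in the interaction. In ADF+ENZ against ENZ 1 of 40 fell, Zbp1, and none rose, with 1.09% of all genes called. Ly6a rose there, but its call held in only 3 of 8 fits with 1 library left out. Against ADF 9 fell in ADF+ENZ, led by Oas2 at −1.35 ± 0.206, Irf7 at −0.71 ± 0.157, Parp14 at −0.60 ± 0.141 and Oasl2 at −0.67 ± 0.173, while Ly6a was at −0.03 and Ly6e rose. In that comparison 16.3% of all genes were called. With the covariate these 9 calls and that of Zbp1 were lost, as were those of Ly6a against ENZ and of Ly6e against ADF. None of the 40 was called in the interaction, in which 3.10% of all genes were called. Their summed level ran between 764 and 953 CPM in ENZ, 717 and 1128 CPM in ADF, 741 and 909 CPM in ADF+ENZ, and 930 and 1192 CPM in Vehicle. Whether the differences of these genes and of the members share a cause was not tested.

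Endothelial cells and monocytes can carry Ly6a, Ly6c1 and Ly6c2. The summed level of 20 endothelial markers, all tested, was 698 to 1263 CPM in ENZ, 825 to 1133 CPM in ADF, 587 to 1122 CPM in ADF+ENZ and 686 to 1080 CPM in Vehicle tumours, and the groups overlapped. In ENZ against Vehicle 2 of the 20 rose, Tek by 0.85 ± 0.211 and Emcn by 0.57 ± 0.153, both of vessel walls, and none fell. There 5.43% of all genes were called. In ADF the VEGF receptor Flt1 fell by 0.53 ± 0.146, a call lost with the covariate, and in ADF+ENZ none of the 20 was called. In these comparisons 9.01% and 12.5% of all genes were called. The part of endothelial cells in the member values was not tested. Pecam1 (CD31) averaged 96.2 ± 27.9 CPM in ENZ, 90.1 ± 10.2 CPM in ADF, 85.6 ± 21.6 CPM in ADF+ENZ and 97.2 ± 22.0 CPM in Vehicle tumours (SD, n = 4 each).

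The 17 monocyte and macrophage markers, all tested, summed to 2320 to 3177 CPM in ENZ, 2480 to 2958 CPM in ADF, 2267 to 3143 CPM in ADF+ENZ and 2585 to 3506 CPM in Vehicle tumours, again with overlap. The lysosomal macrophage protein gene Cd68 fell by 0.48 in ENZ and by 0.44 in ADF and was called in the interaction, at 0.68 ± 0.173 (adjusted p 0.0398, edgeR). With the covariate its ADF difference was −0.12 and its gap 0.27, neither called (adjusted p 0.886 and 0.974, edgeR). In ADF+ENZ against Vehicle Plac8 fell by 1.11, Adgre1 (F4/80) by 0.63 and Fcgr1 by 0.43, the last of which was not called with the covariate. The part of these in the member values was not tested.

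The 12 fibroblast markers summed to 9410 to 10454 CPM in ENZ, 8898 to 12579 CPM in ADF, 11486 to 13411 CPM in ADF+ENZ and 10980 to 12816 CPM in Vehicle tumours. The ENZ libraries lay below the Vehicle libraries, but none of the 12 was called in that comparison. Dcn, a matrix proteoglycan gene, fell by 0.43 in ADF, and the growth factor receptor gene Pdgfra rose by 0.61 in ADF+ENZ relative to Vehicle and by 0.72 relative to ENZ, and these 3 calls were lost with the covariate. The 10 epithelial markers summed to 431 to 776 CPM in ENZ, 524 to 674 CPM in ADF, 304 to 893 CPM in ADF+ENZ and 620 to 837 CPM in Vehicle, with 7 tested and Ovol1, which rose by 1.49 in ADF, the one called against Vehicle (0.38 and uncalled with the covariate). Neutrophil, T and NK cell, B cell, keratinocyte and muscle lists had no call in any comparison with Vehicle.

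Of the machinery that attaches Ly6 proteins to the membrane, 26 genes of GPI anchor synthesis and transfer were tested. In ENZ 1 fell (Pigs), in ADF 1 fell (Pigc, by 0.60 ± 0.109, adjusted p 0.00312, edgeR), and in ADF+ENZ 1 rose (Pigk) and 2 fell (Pigg and Piga), each against Vehicle. With 5.43%, 9.01% and 12.5% of all genes called in these comparisons, the calls do not set the 26 apart from other genes. With the covariate the calls of Pigs and Pigk held and those of Pigc, Pigg and Piga were lost. The median of the 26 was 0.06 for ENZ, −0.08 for ADF and 0.08 for ADF+ENZ.

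**Figure D5:**
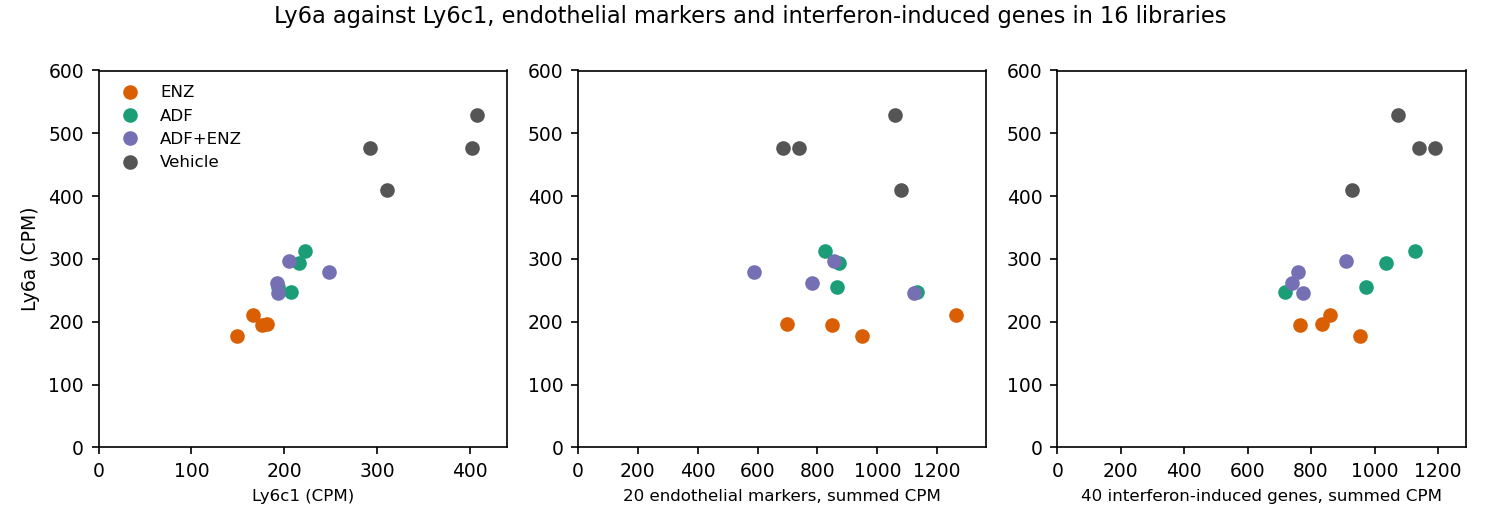
Ly6a CPM against Ly6c1 CPM, against the summed CPM of 20 endothelial markers and against that of 40 interferon-induced genes, each point 1 of 16 libraries, on linear axes from 0. Vehicle libraries are apart from the others on the Ly6a axis. The groups overlap along the endothelial axis. Along the interferon axis the ADF+ENZ libraries lie below those of Vehicle, while ENZ and ADF each overlap Vehicle.

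Within groups, the members moved together only in part. After the group means were removed, Pearson's r over the 16 libraries was 0.58 between Ly6a and Ly6c1, which share some transcript sequence, 0.41 between Ly6c1 and Ly6e, 0.19 between Ly6a and Ly6e and −0.05 between Ly6a and Ly6c2. By the same measure, among 16141 genes with a mean of at least 1 CPM, those most like Ly6a were Gm5165 (r = 0.86), Dubr (0.83) and Kdm2a (0.82). Those most like Ly6c1 were Cbarp (0.88), Tead3 (0.87) and 2810004N23Rik (0.84). For Ly6e they were Pigt (0.93), Immt (0.90) and Ifitm2 (0.90), and for the sparse Ly6c2 they were Gm38317 (0.93), Fcer1g (0.87) and Nfu1 (0.87). The same libraries and their depth underlie both sides of each r, and each is the highest of the 16141 compared.

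The 4 tested members were also correlated with 11 marker lists on these deviations, 44 relations in all, and none passed adjustment. Ly6e against the endothelial list was the nearest, with r = −0.72 and Spearman's rho = −0.86 over 16 libraries (permutation within groups, 2-sided, p 0.0121 and 0.0017, adjusted 0.398 and 0.0748). Without the 2 libraries farthest from the list's median, r was −0.71. For Ly6a the r was −0.24 with the endothelial list, 0.57 with the interferon list and 0.45 with the monocyte list, with adjusted permutation p of 0.879, 0.398 and 0.581. Without the 2 farthest libraries of each list these were −0.30, 0.37 and 0.42, so the value with the interferon list rested in part on those libraries.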

How the data were processed

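RNA-seq libraries of 16 tumours, 4 per group, were analysed. The deposited table gives raw counts per Ensembl mouse gene ID and library. Named without version in the submitters' processing notes are HISAT2, Trim Galore, DESeq2 and featureCounts, and the builds are GRCh38 and mm39, with roles not given. A further 5 entries, named as by htseq-count, took 43.5% to 53.1% of all reads and were left out of library sizes. Symbols, exon lengths and gene order came from GENCODE M21 on GRCm38, and 52081 of 55414 IDs had a symbol.

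Counts were tested with edgeR 4.0.16 (R 4.3.3): TMM scaling, a filter at a minimum count of 10, a robust quasi-likelihood fit of all 16 libraries with 1 mean per group, and Benjamini-Hochberg adjustment over 18946 genes, with 6 contrasts. Alternatives used DESeq2 1.42.0 and limma 3.58.1, among others. The approximate 95% intervals are the estimate and its normal multiple of the SE. On simulated counts, 66% of genes planted at a 2-fold change in ENZ against Vehicle were recovered, and 52% of those planted at 2-fold in the interaction. Replicates of a group always differed by more than sampling noise. A count of 0 was given as 0. Correlations used log2 CPM with a prior count of 2 and 100000 permutations.

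The members and lists were chosen with earlier results of these data known. The genes named are all members, the tested genes of the Ly6 and uPAR list, up to 4 called genes of each other list and comparison with the smallest p, and the 3 genes most like each member; Krt5, Krt14, Krt8, Epcam and Pecam1 were added as defining markers. ENZ against ADF was not among the planned contrasts. The covariate was applied to the list genes after the data were seen.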

Additional observations from a re-analysis of the deposited data

Results flagged for a closer look

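The effect of fasting differed with enzalutamide for 2 members, by a test of the difference itself. For Ly6a the gap between the fasting effect with and without enzalutamide was 1.25 on the log2 scale (adjusted p 0.000403, edgeR): all 4 ADF+ENZ libraries lay above all 4 ENZ libraries, while all 4 ADF libraries lay below all 4 Vehicle libraries. For Ly6c1 the gap was 1.07 (adjusted p 0.00471, edgeR), with the same separation of the libraries. The share of all genes whose libraries separate in this way was not counted, so the separation is a description only. ADF libraries also differed from the others in the percentage of reads in no feature, and with that percentage as a covariate the gaps were 1.22 and 0.96, neither of them called. In no group of 4 did a single library of a member stand far enough from the other 3 to be marked, in 16 groups examined.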

How the results depend on the processing

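The calls of Ly6a and Ly6c1 in ENZ and ADF+ENZ against Vehicle held under every alternative run: DESeq2, its size factors in edgeR, limma-voom, no filter, a filter at 1 CPM in 4 libraries, the compared groups alone, the summed pair, the no-feature covariate and each library left out. With that covariate, the number of members called was 0 in ADF against Vehicle, 0 in ADF+ENZ against ENZ, 0 in ADF+ENZ against ADF and 0 in the interaction; over all genes edgeR then called 6, 43, 0 and 0 (unadjusted p under 0.05 in 1938, 2364, 589 and 1014), against 1707, 206, 3081 and 587 without it, and no other tool was run with it. With single libraries left out, 0 to 1 members were called in ADF+ENZ against ENZ and 2 to 3 in the interaction, the added one being Ly6e.

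Values that changed sign were all uncalled. Ly6e in ADF against Vehicle was 0.064 with the covariate. Ly6c1 in ADF+ENZ against ADF was 0.0078 with DESeq2 size factors, 0.0077 with DESeq2, 0.012 with no filter, and −0.090 to 0.042 with libraries left out; Ly6a there was −0.078 to 0.033. Ly6c2 was −0.16 with limma-voom in ENZ against Vehicle and 0.0083 in ADF against Vehicle. With libraries left out it was −0.45 to 0.40 in ENZ, −0.34 to 0.15 in ADF and −0.99 to 0.11 in the interaction. The cause was not tested. Of the other values of single members, 370 kept direction and side, 11 lost a call and 6 gained one. No marker correlation passed adjustment with a prior count of 0.5.

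No paired analysis was possible because the labels give the groups no shared replicate numbers. Low counts limit what can be said of Ly6d, Psca and Prom1.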
